A study of Mus musculus with 17 samples.

Results

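The genes described here are the caspases Casp1, Casp2, Casp8 and Casp9, the Bcl2 family members Bcl2, Bcl2l1 and Mcl1, and Xiap. They were chosen by symbol from a list of 9 apoptosis genes, and every probe set that the platform annotation gives to one of these symbols was taken. This gave 17 of the 12488 probe sets of the array for 8 of the 9 genes, 8 probe sets for caspases and 9 for inhibitors of apoptosis. The annotation used here lists no probe set for Bax, so its level was not analysed.

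RNA came from mouse brain, from the grey and white matter that the middle cerebral artery supplies, and was measured on 17 oligonucleotide arrays. The single treated brains were 5 animals, 1 per array, which had 1 h of ischemia, then AEOL 10150 into a vein, then 6 h of reperfusion. The treated ischemic pools had the same treatment, the ischemic pools had the same ischemia and reperfusion without the drug, the drug control pools had AEOL 10150 without ischemia, and the control pools had saline without ischemia. Each of these 4 groups had 3 arrays, and each array carried RNA of 6 pooled brains. Control tissue was taken 6 h after the injection. AEOL 10150 is a catalytic antioxidant. The labels give no dose, strain, age or sex, and leave unsaid whether ischemic mice without the drug received saline. Title and description differ in treatment for 2 arrays: the description of drug control pool 1 names saline in place of the drug, and that of treated ischemic pool 1 names no drug. They also differ in number for 2 arrays: the text for treated ischemic pool 2 calls it a first replicate, and single brain 4, named here by its title, has the number 11 in its description.

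Caspases are proteases that cut after aspartate. Casp8 is activated at death receptors and Casp9 on the Apaf1 complex once cytochrome c has left the mitochondria, while Casp2 is an initiator linked to several kinds of cell stress and Casp1 matures interleukin 1 beta in the inflammasome. Bcl2, Bcl2l1 (Bcl-x) and Mcl1 hold the outer mitochondrial membrane closed, and Xiap binds and blocks caspases, Casp9 among them. Caspases are made as inactive precursors, so a transcript level says nothing of their activity.

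All values below are log2 intensities after every array had been scaled to the same trimmed mean of 2500. Intensities under 109.5, a log2 value of 6.77, were set to that floor. A difference that involves values at the floor depends on where the floor was set, and it is understated where only the lower group is there. A marker is called at the floor in a group only where all arrays of that group were at the floor. Of 10 neuron and 8 astrocyte markers listed, 7 each had a probe set, and none of these was at the floor in any group. Among oligodendrocyte markers, Cnp was at the floor in every pooled group and the other 6 were not. The deposited values of 10 arrays were on a common scale. Those of treated ischemic pools 2 and 3 and of all single brains were each on a scale of their own. The actin 3'/5' ratio, a sign of RNA integrity, was 1.38 to 1.60 in single brains, 1.29 to 1.68 in treated ischemic, 1.17 to 1.70 in ischemic, 1.15 to 2.14 in drug control and 1.19 to 1.65 in control pools. In tissue, fewer cells of a type and less RNA per cell cannot be told apart.

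The pools asked first how the balance of caspases and inhibitors stood after ischemia. None of the 17 probe sets passed limma's test at an adjusted p of 0.05 in any of 6 comparisons. These were ischemic against control pools (without the drug), treated ischemic against drug control pools (with the drug), both together, treated ischemic against ischemic pools (the drug after ischemia), drug control against control pools (the drug in tissue with no ischemia), and the difference between both ischemia responses. Over all 10259 probe sets tested, 0.214% passed without the drug, 0.0877% with it and 0.448% over both arms. The drug comparisons called 0.00975% each, and the difference between the responses called 0 by limma, where 213 probe sets had an unadjusted p under 0.05. With backgrounds this low, 0 of 17 does not set the members apart. At an unadjusted p under 0.05 there was 1 member probe set without the drug, 1 with it, 2 over both arms, 1 for the drug after ischemia, 0 for the drug with no ischemia and 0 for the difference. The shares of all probe sets at that limit were 4.12%, 3.44%, 4.92%, 1.47%, 2.57% and 2.08%, in the same order. Mcl1 and 1 of 3 Xiap probe sets had the smallest unadjusted p values of the members over both arms, one higher and the other lower after ischemia.

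Mcl1 (93093_at) is a short-lived protein that keeps Bak1 and Bax in check. Its log2 values were 13.00, 12.99, 12.75, 13.00 and 12.73 in single brains 4, 12, 13, 14 and 16. In pools 1 to 3 they were 12.75, 12.50 and 12.89 after ischemia with the drug, against 12.26, 12.68 and 12.33 in drug controls. They were 12.67, 12.60 and 12.80 after ischemia without the drug, against 12.42, 12.28 and 12.42 in controls. The 3 ischemic pools thus lay above the 3 control pools, while treated ischemic and drug control pools overlapped, since drug control pool 2 exceeded treated ischemic pool 2. Among all probe sets tested, 7.08% did not overlap between ischemic and control pools.

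The Mcl1 difference was 0.32 without the drug (SE 0.18, 95% interval -0.09 to 0.72; adjusted p = 1.0) and 0.29 with it (SE 0.18, interval -0.12 to 0.69; adjusted p = 1.0). Over both arms it was 0.30 (SE 0.13, interval 0.01 to 0.59; limma adjusted p = 0.963). The difference between the 2 ischemia responses was -0.03, with an interval from -0.61 to 0.54, so the pools did not resolve whether the drug altered the Mcl1 response. Group means ran from 12.89 ± 0.14 (SD, n = 5) in single brains through 12.71 ± 0.20 in treated ischemic, 12.69 ± 0.10 in ischemic and 12.42 ± 0.23 in drug control to 12.37 ± 0.08 in control pools (SD, n = 3 each). Neighbouring means in this order lay closer than the larger of their SDs, except for ischemic and drug control pools, whose values overlapped through drug control pool 2.

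**Figure D1:**
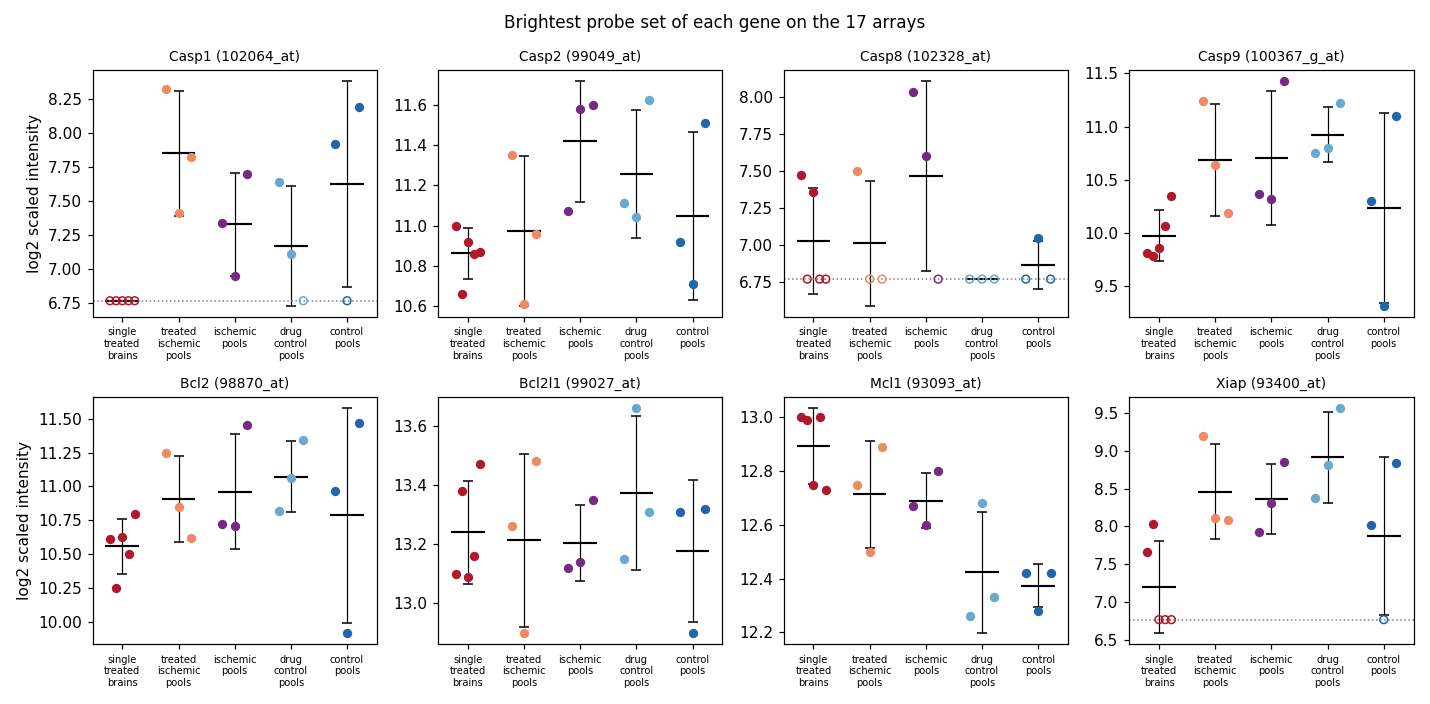
Log2 scaled intensity of the brightest probe set of each of the 8 genes on each array, with the group mean and SD as bars; open circles are values at the floor, drawn as a dotted line where it is near. Mcl1 lies at 12.60 to 12.80 in ischemic and 12.28 to 12.42 in control pools, and the other 7 genes overlap between these groups.

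Xiap had 3 probe sets, which did not move alike. The probe set 93402_i_at, whose suffix marks fewer probes than usual, read 7.20, 6.77, 6.77, 6.77 and 7.07 in single brains 4, 12, 13, 14 and 16. It read 7.53, 7.44 and 7.16 in treated ischemic pools, against 8.09, 8.90 and 9.21 in drug controls. It read 8.54, 8.10 and 8.85 in ischemic pools, against 9.06, 7.74 and 9.09 in controls. Every treated ischemic pool was therefore below every pool of the other 3 groups, and ischemic and control pools overlapped.

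For 93402_i_at the difference after ischemia with the drug was -1.36 (SE 0.40, 95% interval -2.25 to -0.46; limma adjusted p = 0.867). No overlap between treated ischemic and drug control pools occurred in 7.39% of all probe sets tested. Treated ischemic minus ischemic pools gave -1.12 (SE 0.40, interval -2.01 to -0.22; adjusted p = 1.0), with no overlap in 3.82% of all probe sets. Both comparisons share the treated ischemic pools. Without the drug, ischemia gave -0.14 (interval -1.03 to 0.76), and the difference between the ischemia responses was -1.22 (interval -2.49 to 0.04; adjusted p = 1.0). Treated ischemic pool 1, deposited on the common scale, was at 7.53 and pools 2 and 3, on their own scales, were at 7.44 and 7.16. With the scale as a block, the difference after ischemia with the drug was -1.21. Of all pools only treated ischemic pools 2 and 3 lay off the common scale, so the block takes them up. The value therefore compares treated ischemic pool 1 with the drug controls, and cannot serve as a check of the group difference. With the floor at the 40th percentile, an intensity of 458.4, this probe set lay mostly at the floor and its difference after ischemia with the drug was -0.14.

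The other Xiap probe sets gave no such separation. Probe set 93400_at read 9.19, 8.11 and 8.08 in treated ischemic pools, against 8.37, 8.81 and 9.56 in drug controls, and 7.93, 8.31 and 8.85 in ischemic pools, against 8.02, 6.77 and 8.84 in controls. Its difference with the drug was -0.45 (interval -1.65 to 0.74) and without it 0.48 (interval -0.71 to 1.68). Probe set 93401_g_at was at the floor in all treated ischemic pools and all single brains, and above it in 1 of 3 ischemic, 1 of 3 drug control and 2 of 3 control pools. Over the 12 pooled arrays the pairs of Xiap probe sets correlated at r = 0.30 to 0.70, as a description of arrays that share scale and replicate effects.

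**Figure D2:**
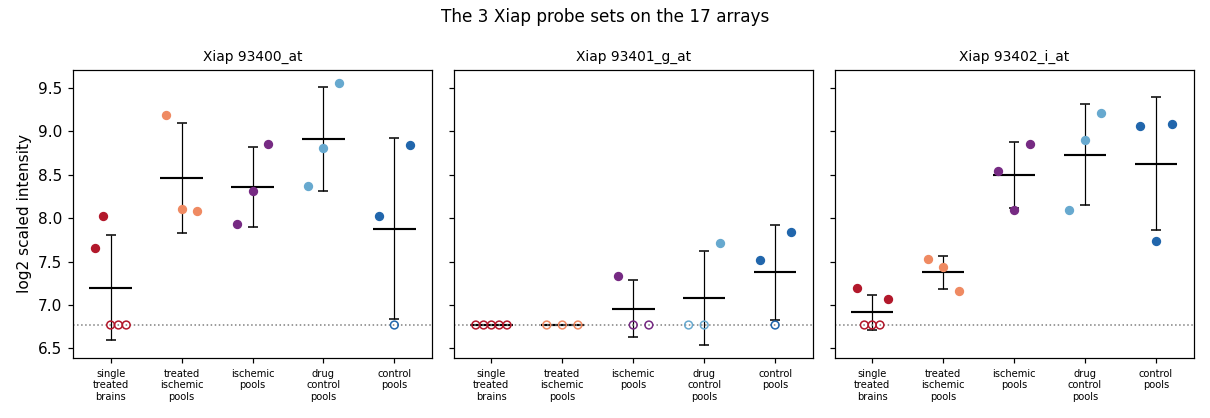
Log2 scaled intensity of the 3 Xiap probe sets by group, 1 point per array, with the group mean and SD as bars, open circles at the floor and the floor as a dotted line. In 93402_i_at the treated ischemic pools span 7.16 to 7.53 and the drug control pools 8.09 to 9.21, while in 93400_at these groups overlap.

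The initiator caspases showed no call either. Casp2 had the largest difference of the members without the drug, in 161263_f_at, a probe set whose suffix marks a sequence family. It read 8.50, 8.89 and 9.64 in ischemic pools, against 7.60, 6.77 and 8.86 in controls. The groups overlapped because control pool 3 exceeded ischemic pool 1. The difference was 1.26 (SE 0.54, interval 0.06 to 2.46; limma adjusted p = 1.0), and it was 0.78 without control pool 2, which was at the floor, 1.82 without control pool 3 and 0.28 with the floor at the 40th percentile. The drug control pools read 8.55, 9.64 and 8.52 and overlapped the controls, with a difference of 1.16 (SE 0.54, interval -0.04 to 2.36). No member separated drug control from control pools, where 4.65% of all probe sets did. Treated ischemic pools read 8.86, 9.56 and 8.59, close to those drug controls, with a difference of 0.10 (interval -1.10 to 1.30). The second Casp2 probe set, 99049_at, gave 0.37 without the drug (interval -0.27 to 1.02) and -0.29 with it (interval -0.93 to 0.36).

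Casp8 (102328_at) was near the limit of these arrays. It was at the floor in all 3 drug control pools and in 2 of 3 treated ischemic and 2 of 3 control pools. The ischemic pools 1 and 2 were above it, at 8.03 and 7.60, against control pool 2 alone, at 7.05. The difference without the drug was 0.60 (SE 0.31, interval -0.10 to 1.30; adjusted p = 1.0). Ischemic pool 3 was at the floor too, so this value depends on where the floor was set.

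Casp9 had 4 probe sets. In 100367_g_at, a probe set that shares probes with others of its group, values were 11.24, 10.64 and 10.19 in treated ischemic pools, against 10.75, 10.80 and 11.22 in drug controls. They were 10.37, 10.32 and 11.43 in ischemic pools, against 10.30, 9.32 and 11.10 in controls. The groups overlapped in both comparisons, and the differences were -0.23 (interval -1.27 to 0.81) with the drug and 0.47 (interval -0.57 to 1.5) without it. Probe set 103711_at gave differences of -0.16 (interval -0.66 to 0.33) with the drug and -0.23 (interval -0.72 to 0.27) without it, neither past the test.

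Of the probe sets of Casp9, 3 of 4 had a larger share of their variance for replicate number than for group, and of those of Bcl2, 3 of 3 did. The exception among these was Casp9 103711_at, with 18.2% for replicate number and 20.4% for group. Casp1, Casp2 99049_at and Bcl2l1 99027_at also had the larger share for replicate number, and the remaining member probe sets for group. By chance alone 4 groups take up more variance than 3 replicate numbers, and the shares were not corrected for this. Casp9 100368_at was at the floor in pool 2 of all 4 groups and between 8.22 and 9.32 in pools 1 and 3, and replicate number held 92.9% of its variance over the 12 pools, against 3.5% for group. Bcl2 98868_at showed the opposite, with its highest value of each group in pool 2, at 8.20 in treated ischemic, 8.60 in ischemic, 8.06 in drug control and 7.71 in control pools. Replicate number held 89.6% of that variance and group 1.2%. For Mcl1 the shares were 4.6% for replicate number and 56.1% for group, and for Xiap 93402_i_at 9.7% and 61.8%. What a replicate number stands for is not stated in the labels.

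Casp1 (102064_at), the inflammatory caspase, read 8.32, 7.41 and 7.82 in treated ischemic pools, against 7.64, 7.11 and 6.77 in drug controls, and 7.34, 6.95 and 7.70 in ischemic pools, against 7.92, 6.77 and 8.19 in controls. The groups overlapped in both comparisons. Its difference was 0.67 with the drug (interval -0.22 to 1.57) and -0.30 without it (interval -1.19 to 0.60). Casp1 is typical of microglia and infiltrating myeloid cells. The summed intensity of 10 microglial markers ran from 35818 to 44037 in treated ischemic, 36177 to 40260 in ischemic, 33225 to 36921 in drug control and 33370 to 44310 in control pools. Aif1 was at the floor in all 4 groups, and Itgam in treated ischemic and drug control pools. The sum of 10 neutrophil markers was 9671 to 11697 in ischemic and 7469 to 9094 in control pools, with Ngp at the floor in both, Mmp9 in ischemic and Ly6g in control pools. Red blood cell markers, 4 genes, summed to 9351 to 12580 in ischemic and 2720 to 4688 in control pools, with Epb42 at the floor in controls. With the drug both sums overlapped. Treated ischemic and drug control pools had 7552 to 12691 and 7236 to 9895 for neutrophils, and 3627 to 10808 and 2887 to 5196 for red blood cells. Ngp was at the floor in both of these groups, and Mmp9 and Epb42 in treated ischemic pools. The part of these cells in the member differences was not tested.

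The pro-survival genes Bcl2 and Bcl2l1 did not pass the test in the pools, and their intervals were wide. Bcl2l1 99027_at read 13.26, 12.90 and 13.48 in treated ischemic pools, against 13.15, 13.66 and 13.31 in drug controls. It read 13.12, 13.14 and 13.35 in ischemic pools, against 13.31, 12.90 and 13.32 in controls. The differences were -0.16 (interval -0.65 to 0.33) with the drug and 0.03 (interval -0.46 to 0.52) without it, so a change beyond 0.65 on the log2 scale lay outside both intervals. Its other probe set, 99026_at, was above the floor in 6 of 12 pools and read 9.54, 8.46 and 6.77 in treated ischemic pools, with a difference of 1.24 against drug controls (SE 0.68, interval -0.28 to 2.75). The 2 Bcl2l1 probe sets correlated at r = 0.05 over the 12 pools. Bcl2 98870_at gave -0.17 (interval -1.02 to 0.68) with the drug and 0.17 (interval -0.68 to 1.02) without it.

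Side by side, caspases and inhibitors overlapped in their differences in the pools. After ischemia without the drug, 5 of 8 caspase probe sets were higher with a median of 0.39, and 6 of 9 inhibitor probe sets were higher with a median of 0.07, where the median of all probe sets tested was 0.03. These medians were -0.02 for caspases and -0.11 for inhibitors without control pool 2, and 0.03 and -0.04 without ischemic pool 3. With the drug, 4 of 8 caspase and 4 of 9 inhibitor probe sets were higher. The medians of these classes were -0.03 and -0.16, against -0.02 over all. With the scale of the deposited values as a block they were 0.32 and 0.17. Those block values compare only treated ischemic pool 1 with the drug controls, so they do not check the group medians. Probe sets of a gene share transcripts and those of a class are not replicates, so these counts are descriptions. For the drug after ischemia the medians were 0.02 for caspases and -0.05 for inhibitors, and for the drug without ischemia 0.09 and 0.05. With groups taken from the descriptions they were -0.26 and -0.25 after ischemia, and -0.1 and 0.28 without it. Leaving out the 2 arrays whose description differs from the title gave -0.13 and -0.19, and -0.06 and 0.16. The drug medians thus depend on how these 2 arrays are read.

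**Figure D3:**
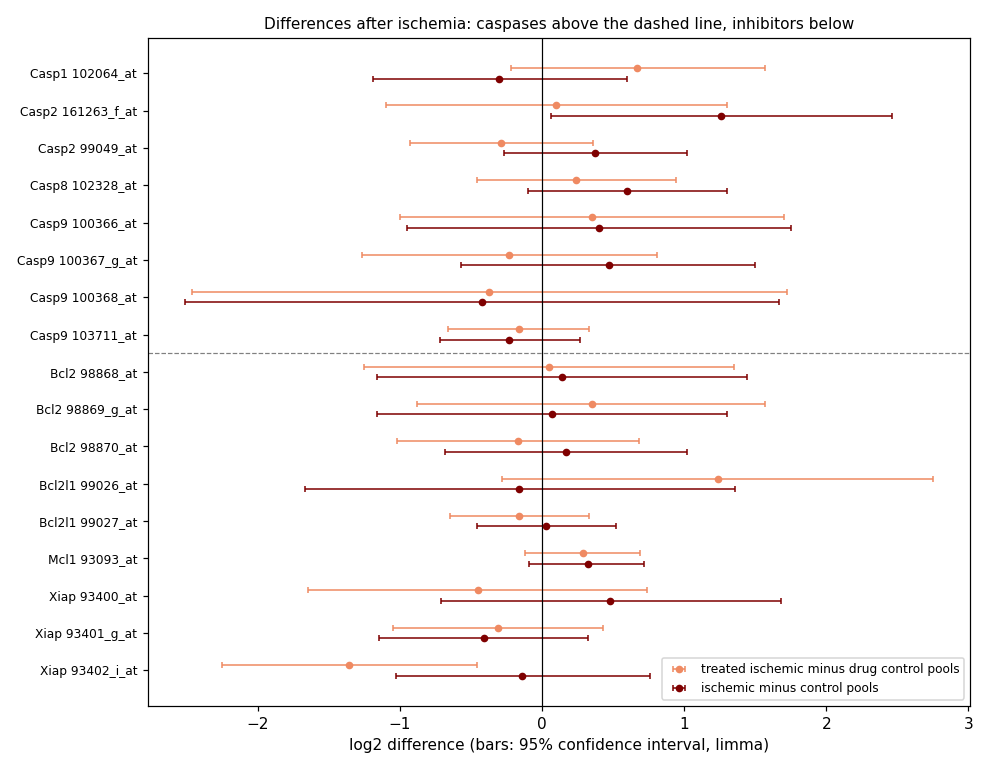
Log2 difference after ischemia for each of the 17 probe sets, treated ischemic minus drug control pools above and ischemic minus control pools below, with 95% confidence intervals from limma; caspases are above the dashed line and inhibitors below it. The intervals exclude 0 for Xiap 93402_i_at with the drug (-2.25 to -0.46) and for Casp2 161263_f_at without it (0.06 to 2.46), before any adjustment.

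The mean deviation of the 4 caspases and of the 4 inhibitors from their means over the pools, with the brightest probe set of each gene, shows how single arrays stood. The caspase mean ran from -0.59 to -0.32 in single brains, -0.22 to 0.52 in treated ischemic, 0.03 to 0.29 in ischemic, -0.15 to 0.01 in drug control and -0.62 to 0.31 in control pools. The inhibitor mean ran from -0.47 to -0.12 in single brains, -0.19 to 0.33 in treated ischemic, -0.17 to 0.33 in ischemic, -0.13 to 0.35 in drug control and -0.81 to 0.23 in control pools. Both means were lowest in control pool 2, and both were below 0 in all 5 single brains. The caspase minus the inhibitor mean ran from -0.47 to 0.11 in single brains, -0.13 to 0.18 in treated ischemic, -0.04 to 0.29 in ischemic, -0.43 to 0.12 in drug control and 0.00 to 0.19 in control pools, so all groups overlapped.

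**Figure D4:**
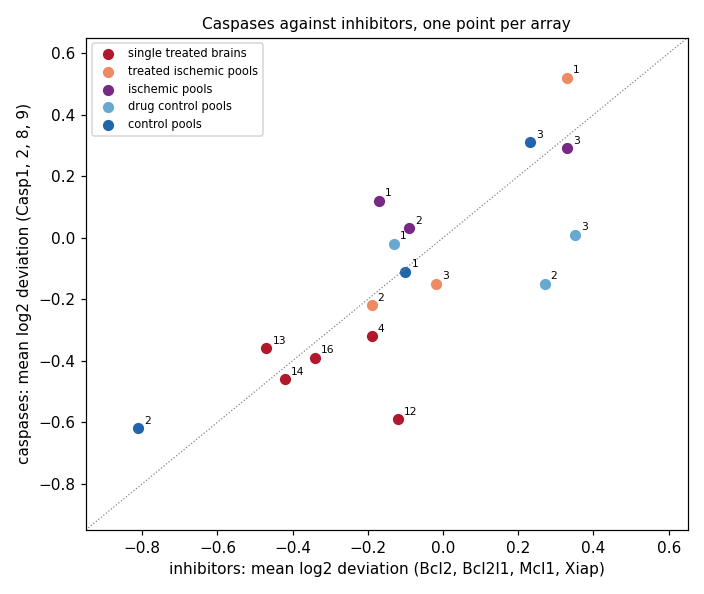
Mean log2 deviation of the 4 caspases (y) against that of the 4 inhibitors (x) from their means over the 12 pools, 1 point per array, numbered by replicate; the dotted line marks equal deviations. The single brains lie below 0 on both axes, as do treated ischemic pools 2 and 3, drug control pool 1 and control pools 1 and 2.

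The single treated brains asked how the members stood in individual animals against the pools. Xiap fell against both sets of pools in 1 of its 3 probe sets, and 1 of 4 Casp9 probe sets fell against the drug controls, while Mcl1 had its highest group mean there. Of 13 member probe sets tested against drug control pools, 3 passed and all 3 fell, where 6.51% of 9907 probe sets passed in all and 3.6% passed and were lower. Of 15 tested against ischemic pools, 1 passed and fell, where 1.84% of 9889 passed and 0.93% passed and were lower. The Xiap probe sets among these calls exceeded the floor in fewer than 3 single brains. They reached the filter of 3 arrays above the floor through the pools, which favoured a lower value in advance. These counts are therefore not read as a trait of the members. All single brains were deposited on scales of their own and were not pooled, while all drug control and ischemic pools were on the common scale. Scale, pooling and treatment thus cannot be told apart in these comparisons. The treated ischemic pools had the same treatment as the single brains. Their means were 7.38 for Xiap 93402_i_at, 8.46 for Xiap 93400_at and 10.69 for Casp9 100367_g_at, against 6.92, 7.20 and 9.98 in single brains. The difference between these groups was not tested. At an unadjusted p under 0.05, 28.1% of all probe sets differed from drug controls and 23.2% from ischemic pools.

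Xiap 93402_i_at was below every drug control pool and every ischemic pool in 5 of 5 single brains. Its difference was -1.82 against drug controls (SE 0.26, interval -2.40 to -1.23; limma adjusted p = 0.01) and -1.58 against ischemic pools (SE 0.20, interval -2.04 to -1.11; adjusted p = 0.0156). These differences are understated, since 3 of the 5 brains were at the floor. The floor also narrowed the spread among the brains, on which the SE and p rest. Fewer than 3 brains exceeded the floor, so the probe set reached the filter through the pools. That favoured a lower value in single brains in advance. The call against ischemic pools was lost in 1 fit of all 17 arrays (adjusted p = 0.0615) and with the floor at the 20th percentile (adjusted p = 0.0667). Xiap 93400_at read 7.66, 8.03, 6.77, 6.77 and 6.77 and was below every drug control pool as well, by -1.71 (SE 0.39; adjusted p = 0.0434), but overlapped the ischemic pools (difference -1.16, adjusted p = 0.123). Xiap 93400_at too exceeded the floor in fewer than 3 brains and reached the filter through the pools. Its call against drug controls held in 2 of 12 alternative settings, with adjusted p values from 0.0361 to 0.121.

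Casp9 100367_g_at read 9.81, 9.79, 9.86, 10.07 and 10.35 in single brains 4, 12, 13, 14 and 16, all below the 3 drug control pools, by -0.94 (SE 0.18, interval -1.37 to -0.52; limma adjusted p = 0.0285). This call was lost without drug control pool 3 or without any one of single brains 4, 12, 13 and 14. Against ischemic pools the difference was -0.73 (adjusted p = 0.173). The other Casp9 probe sets gave -0.14 for 100366_at, 0.00 for 100368_at and 0.13 for 103711_at against drug controls, none past the test. Probe set 103711_at read 10.36 to 10.48 in single brains, above all ischemic pools (9.88 to 10.26), with a difference of 0.33 (adjusted p = 0.187).

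Of the members that did not pass, Mcl1 was above all drug control pools in 5 of 5 brains, by 0.47 (SE 0.15, interval 0.12 to 0.81; adjusted p = 0.0943). Without drug control pool 2 it was 0.60 and passed (adjusted p = 0.0421). Bcl2 98870_at was 10.25 to 10.80 in single brains and below all drug control pools, by -0.52 (interval -0.92 to -0.12; adjusted p = 0.105). Casp2 99049_at lay at 10.66 to 11.00, below all pools of both groups, by -0.40 against drug controls (adjusted p = 0.167) and -0.56 against ischemic pools (adjusted p = 0.111). Without ischemic pool 1, the difference from ischemic pools was -0.73 and passed (adjusted p = 0.0428). Casp1 was at the floor in all 5 brains, at least 1.47-fold lower than the mean of the ischemic pools. It passed the filter through the ischemic pools alone, which fixed the direction in advance, so its test is not read. Against drug controls, Casp1, Casp8, Bcl2l1 99026_at and Xiap 93401_g_at were above the floor on fewer than 3 arrays and were not tested. In all, 1 member lay above and 5 below every drug control pool, where 21.0% of all probe sets did not overlap, and 1 above and 3 below every ischemic pool, where 17% did not. Casp1 is among these 3.

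Marker sums of some other cells also differed between these arrays. Those of oligodendrocytes and astrocytes lay above the drug control pools and overlapped the ischemic pools. Those of red blood cells and neutrophils lay below the ischemic pools and overlapped the drug controls. The sums for microglia, neurons, endothelium, and choroid plexus with meninges overlapped both sets of pools. Oligodendrocyte markers, 7 genes, summed to 133488 to 179806 in single brains, against 125409 to 146464 in ischemic and 102366 to 128129 in drug control pools, where Cnp was at the floor. Astrocyte markers, 7 genes and none at the floor, summed to 134543 to 162980, against 131835 to 143047 in ischemic and 124826 to 132253 in drug control pools. Red blood cell markers, 4 genes, summed to 2172 to 5895 in single brains, against 9351 to 12580 in ischemic and 2887 to 5196 in drug control pools, with Epb42 at the floor in single brains. Neutrophil markers, 10 genes, summed to 6407 to 9353, against 9671 to 11697 in ischemic and 7236 to 9895 in drug control pools. Ngp was at the floor in all 3 groups, Ly6g in single brains and Mmp9 in ischemic pools. Microglial markers, 10 genes, summed to 30401 to 41304 in single brains, against 36177 to 40260 in ischemic and 33225 to 36921 in drug control pools. Aif1 was at the floor in both sets of pools and Itgam in drug controls. The part of these cells in the lower Xiap, Casp9 and Casp1 values was not tested.

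The wider apoptosis machinery gave the same count of calls in the pools. Of 55 other genes of the pathway, 39 had a probe set and 37, on 43 probe sets, were tested, and 0 passed in the 6 comparisons of pools by limma. At an unadjusted p under 0.05 there were 1 higher and 0 lower without the drug, 0 and 2 with it, and 2 and 1 over both arms. There were 0 and 0 for the drug after ischemia, 2 and 0 for the drug without ischemia, and 0 and 2 for the difference. The BH3-only genes Bbc3 and Pmaip1 were among the 16 genes not analysed here. Median differences of the 43 probe sets were 0.09 without the drug and -0.11 with it, against 0.03 and -0.02 over all probe sets tested.

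Birc3, a relative of Xiap that acts in NF-kB signalling, had the smallest unadjusted p in the wider lists without the drug. Its probe set 160645_at averaged 10.02 in ischemic pools (9.87 to 10.11), against 7.98 in controls (7.43 to 8.86), a difference of 2.04 (SE 0.50; limma adjusted p = 0.367). The groups did not overlap. Drug control pools averaged 9.26 (8.10 to 10.18), so the drug without ischemia gave 1.27 (SE 0.50; adjusted p = 1.0), and treated ischemic pools averaged 9.97 (9.95 to 10.01). Over both arms Casp4, an inflammatory caspase, was at 0.83 (SE 0.35; adjusted p = 0.958), and Apaf1, the scaffold on which Casp9 is activated, was at -0.43 (SE 0.19; adjusted p = 0.963). Bik, a BH3-only protein, and Tnfsf10, the death ligand TRAIL, were at -1.55 and -0.88 with the drug (adjusted p = 1.0 each). Their differences between the ischemia responses were -2.55 (SE 0.96) and -1.36 (SE 0.51), neither past the test, and Tnfsf10 had 0.89 for the drug without ischemia.

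Among inhibitor of apoptosis proteins and their antagonists other than Xiap, 8 of 8 probe sets were lower for the drug after ischemia, with a median of -0.19, and none had an unadjusted p under 0.05. Over all probe sets tested, 5422 of 10259 were lower in that comparison. Of the other caspases and their adaptors 6 of 7 were lower, with a median of -0.11. Among nucleases and death substrates, 5 of 6 were higher in that comparison, with a median of 0.30. The remaining lists were closer to even. Lower were 7 of 12 probe sets of BH3-only and Bax-like genes (median -0.02), 2 of 3 of other pro-survival genes (-0.04) and 4 of 7 of death receptor genes (-0.16). No list held an unadjusted p under 0.05 there. The median of all probe sets tested was -0.02.

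Over the 12 pools the transcripts whose log2 values were most like those of Mcl1 were Efna2 (r = 0.92) and P4ha1 (r = 0.90). For Xiap 93402_i_at they were Atp6v0a2 (r = 0.87) and Trappc12 (r = 0.84). These were the highest among 6693 probe sets above the floor on all 12 arrays. The arrays share replicate number and scale, so the values describe likeness on these arrays.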

How the data were processed

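The authors deposited linear intensities, some negative, with 1 value for each probe set on each array; how they were made and scaled is not given in the sources used here. Each array was multiplied to a trimmed mean of 2500, taken from the 2nd to the 98th percentile. Values under the 25th percentile of the pooled arrays (109.5) were set to that floor before log2 was taken. Groups followed the titles, and the descriptions for single brains. Probe sets that exceeded the floor on 3 or more of the arrays fitted were tested with limma 3.58.1 in R 4.3.3, two-sided, with Benjamini-Hochberg adjustment over all probe sets tested and a threshold of 0.05. The 12 pools shared 1 fit, with 8 residual and 2.23 prior degrees of freedom; single brains were fitted with each set of pools separately. Intervals are 95% and unadjusted. The scripts were tested on simulated data.

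Same-numbered control, drug control and ischemic pools deviated together (r = 0.41 to 0.67 over 7420 probe sets), and the numbers were read as pairing them. Correlations with treated ischemic pools ran from -0.34 to 0.53. The main fit of the pools did not include this pairing, so its SEs, intervals and p-values are unpaired. Replicate number as a block was run as an alternative setting. The labels do not say whether pools share animals or preparations, so p-values concern the spread between arrays, whose number limits the precision. Members, lists and tests were chosen with earlier results of these data known. Named genes were all members and, of the wider lists, up to 3 per direction and comparison of pools with the smallest unadjusted p under 0.05.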

Additional observations from a re-analysis of the deposited data

How the results depend on the processing

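In the 6 comparisons of pools, 0 member probe sets passed in any of 97 alternative settings. With the floor at the 40th percentile, 6 caspase and 6 inhibitor probe sets were tested, and the rest of the 17 could not pass. With the replicate block, Xiap 93402_i_at after ischemia with the drug stayed at -1.36 (adjusted p = 0.535), and the block changed no call of a member; it raised the count over all probe sets for ischemia without the drug to 35, against 22. Against drug controls, 3 member probe sets passed. This count was 1 with the floor at the 40th percentile and 1 in 1 fit of all 17 arrays. It was 1 to 4 when 1 array was left out. It was 1 without drug control pool 3 or single brain 4, 13 or 14, and 4 without drug control pool 2. Against ischemic pools, the count of 1 was 0 with the floor at the 20th percentile, 0 with it at the 40th and 0 in 1 fit of all 17 arrays, and 1 to 2 when 1 array was left out. Where it was tested, Xiap 93402_i_at passed against drug controls in 12 of 12 settings (adjusted p 0.00209 to 0.0347) and against ischemic pools in 10 of 12 (0.01 to 0.0667). Casp9 100367_g_at passed in 7 of 13 (0.0151 to 0.176) and Xiap 93400_at in 2 of 12 (0.0361 to 0.121). With the floor at the 40th percentile, Casp2 161263_f_at without the drug was 0.28. The floor at the 20th percentile was chosen after seeing the data, because the planned 10th percentile, -139.1, has no log. The causes were not tested.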
